A study of Rattus norvegicus with 3 samples.

Results

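The cycling B-lineage cluster was the group of dividing B-lineage cells in single-cell RNA sequencing of rat condylar cartilage and subchondral bone from the temporomandibular joint (TMJ). It was chosen by measured values: in each library it was the cluster with the highest level of Top2a among clusters with at least 50 CPM of Pax5, after the clusters highest in Vpreb1, in Alas2 and (after Vpreb1) in Rag1, and sham cluster 13, had been set aside. A UMI (unique molecular identifier) marks 1 captured RNA molecule, and levels are in CPM, counts per 1000000 UMIs of the cluster. The rule took 1 cluster per library, 3 of 52 in all: sham cluster 3, UAC cluster 5 and UAC + miR-330 cluster 16. Since Top2a and Pax5 chose the clusters, and clustering used gene levels, the levels that set the cluster apart from other clusters are given as a description.

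B cells are made in bone marrow, where a pro-B cell that has joined a heavy chain gene tests it with the surrogate light chain, which the Vpreb and Igll1 genes encode. Large pre-B cells that pass divide several times, then leave the cell cycle, become small and switch on Rag1 and Rag2 again to join a light chain gene. Pax5 and Ebf1 hold cells in the B lineage, Cd79b is a signalling subunit of the B cell receptor, and Top2a and Mki67 are made in cells that are replicating or dividing.

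Sprague-Dawley rats (labelled wild type), 24 in all and 8 per group, received an adeno-associated virus (AAV) by injection into the joint and were kept for 8 weeks. Sham rats received Vector AAV without unilateral anterior crossbite (UAC), which changes the bite and loads the joint; UAC rats received Vector AAV with UAC; UAC + miR-330 rats received miR-330 AAV with UAC. All 3 groups thus carried an AAV, and the series' design text, not the label of the third sample, names miR-330. The 16 condyles of a group were pooled into 1 library, so rats could not be told apart, each condition had n = 1, and no difference between conditions was tested. The labelled cell types were chondrocytes and osteoclasts, so the dividing B-lineage cells are not among the cells the labels name. The age of the rats and the promoter of the AAV are not stated here.

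The sham library held 77668015 UMIs, the UAC library 92629658 and the UAC + miR-330 library 97255383. Cluster 3 of sham held 12790589 of them, 16.47% (exact binomial 95% interval 16.46% to 16.48%), on 15656 genes. Cluster 5 of UAC held 12007051, 12.96% (12.96% to 12.97%), on 15817 genes. Cluster 16 of UAC + miR-330 held 5792752, 5.96% (5.95% to 5.96%), on 14367 genes. By UMIs it was thus the largest of 15 clusters in sham, the 2nd of 18 in UAC and the 7th of 19 in UAC + miR-330. Intervals here and for all levels (exact Poisson, 95%) cover counting error only, not differences between rats or libraries. The tables hold no cell barcodes, so more cells and more RNA per cell cannot be told apart, and shared barcodes, doublets and free RNA could not be counted.

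The UAC + miR-330 library differed from the others in a way that bears on each of its own results: its cycling B cells outside the Igll1-high cluster lay in 2 clusters. Cluster 12 was next in Top2a, at 1425 against 2110.1 in cluster 16, while the next cluster that qualified reached 26.0 in sham (cluster 5) and 639 in UAC (cluster 11). Sham cluster 13, which the rule set aside, held Top2a at 633, so the low value of sham follows from the rule. Cluster 12 held 5395430 UMIs, 5.55% of its library, and with cluster 16 it held 11188182, 11.5%. Across 9589 genes, UAC cluster 5 had a correlation of 0.981 with cluster 12 and of 0.979 with cluster 16, and its next nearest cluster in that library reached 0.933. Sham cluster 3 and UAC cluster 5 correlated at 0.990 (genes of 1 cluster share its library and depth and are not independent replicates). Of the 50 leading genes of each cluster, UAC cluster 5 shared 23 (46% of each list) with cluster 16, 20 (40%) with cluster 12 and 39 (78%) with both joined, but clusters 12 and 16 shared only 4 (8%) with each other. Each result for UAC + miR-330 is therefore given for cluster 16, which the rule chose, and for clusters 12 and 16 together, an alternative chosen after seeing the data. The rule took the one higher in Top2a of the 2, so levels of cell cycle genes in cluster 16 depend in part on that choice.

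**Figure D1:**
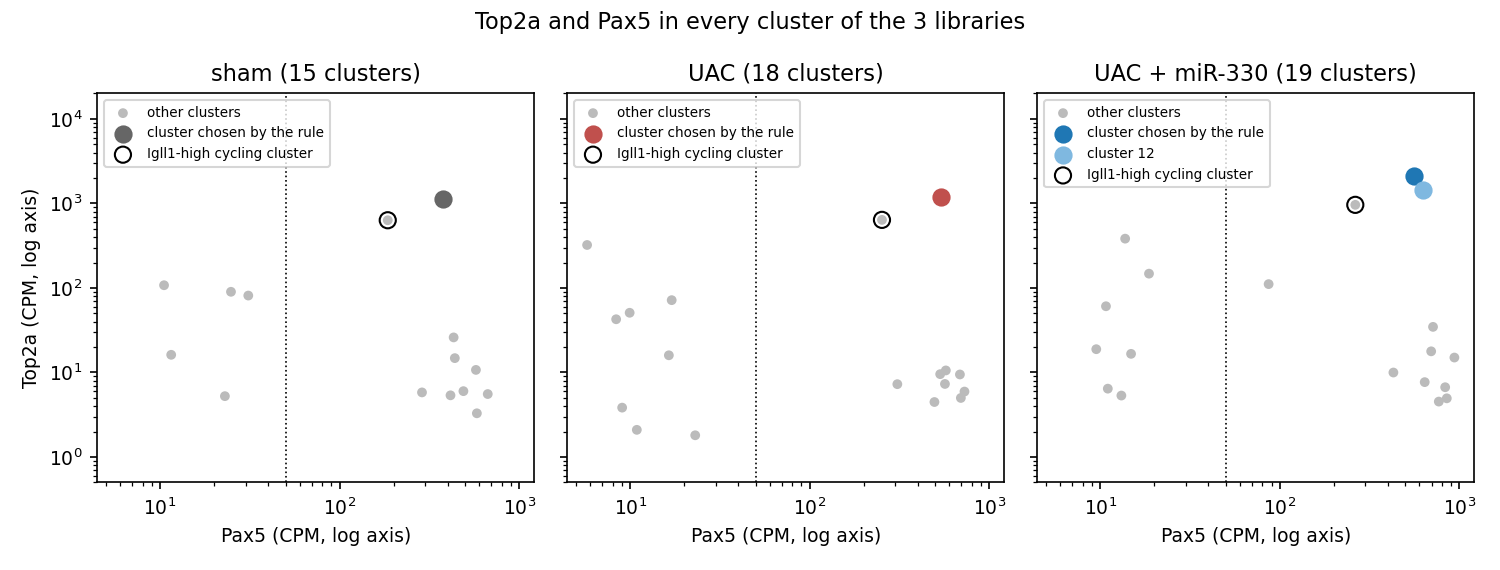
Top2a (vertical axis) against Pax5 (horizontal axis), both in CPM on log axes, with 1 point per cluster and 1 panel per library; the dotted line marks the Pax5 minimum of 50. The chosen clusters stand highest in Top2a among clusters right of the line, at 1121, 1204 and 2110.1, and cluster 12 of UAC + miR-330 follows at 1425.

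Levels of the 4 markers describe the chosen clusters, and those of Top2a and Pax5 were set in part by the rule. Top2a (ENSRNOG00000053047), which untangles DNA, stood at 1121 (1103 to 1140) in sham, 1204 (1185 to 1224) in UAC, 2110.1 (2073 to 2148) in cluster 16 and 1780 (1755 to 1804) in clusters 12 and 16 together. Mki67 (ENSRNOG00000028137), a protein of the surface of mitotic chromosomes, stood at 942 (926 to 959), 1000.4 (983 to 1018), 2216 (2178 to 2255) and 1986 (1960.4 to 2013) in the same order. The B-lineage factor Pax5 (ENSRNOG00000024729) stood at 378 (367 to 388), 542 (529 to 555), 562 (543 to 582) and 595 (581 to 610). Cd79b (ENSRNOG00000011917) stood at 650.01 (636 to 664), 568 (554 to 581), 426 (410 to 444) and 494 (481 to 507). In the cluster highest in Col2a1, a chondrocyte collagen, Top2a reached 16.2 in sham, 42.6 in UAC and 18.9 in UAC + miR-330, Pax5 11.5, 8.36 and 9.52, and Cd79b 28.7, 24.1 and 15.3. Near the Pax5 minimum, the lowest level inside was 185 in sham, 253 in UAC and 86.7 in UAC + miR-330, and the highest outside was 31.0, 23.0 and 18.7. The same 3 clusters were chosen with a minimum of 20 or of 100.

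The sum of early B factors and the heavy chain stood lower in the cluster than in the Rag1-high cluster. That is the non-cycling cluster highest in Rag1 once the cluster highest in Vpreb1 was set aside. Ebf1, which opens the B-lineage program with Pax5, stood at 7993 in sham, 9134 in UAC, 9865 in cluster 16 and 10866 in the 2 clusters together, and was among the most abundant genes named here. Ighm, the heavy chain of IgM, stood at 3191, 3158, 2641 and 2981, against 5616, 5302 and 5006 in the Rag1-high cluster of sham, UAC and UAC + miR-330. Bach2, a repressor that keeps B cells from becoming plasma cells, stood at 2029.5, 2206, 2656 and 2837. The receptor adaptor Blnk stood at 1056, 1150, 1213 and 1305, and the kinase Lyn at 927, 989, 1225 and 1314. The 23 early B transcription factors on the list summed to 16299.5, 18397, 19923 and 21664, against 35337, 37114 and 42679.5 in the Rag1-high cluster, and ranked 9th of 15 clusters in sham, 8th of 18 in UAC and 9th of 19 for cluster 16.

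Genes of the stages before and after stood at various levels. Igll1 stood at 231 (223 to 240) in sham, 159 (152 to 167) in UAC, 136 (127 to 146) in cluster 16 and 122 (116 to 129) in the 2 clusters. Vpreb1 stood at 23.6, 32.0, 19.2 and 20.8, and Dntt, which adds bases at the joints of heavy chain genes, at 18.5, 18.7, 1.55 and 5.54. Rag1 stood at 17.4, 26.6, 15.7 and 32.0, against 340, 294 and 395 in the Rag1-high cluster of the same libraries, set apart as above. Rag2 stood nearer to that cluster, at 34.5, 27.4, 26.2 and 47.3 against 38.3, 36.1 and 48.9. Ms4a1, the CD20 antigen of mature B cells, stood at 7.74, 7.33, 8.98 and 11.4. Jchain, a plasma cell gene, stood at 12.9, 10.5, 18.1 and 16.2, and Bcl6, a repressor used in pre-B and germinal centre cells, at 18.7, 23.1, 21.2 and 30.5. Il7r was not analysed here.

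Among D-type cyclins, which carry growth signals to the cell cycle, Ccnd3 stood far above Ccnd2 in UMIs. Ccnd3 reached 494 in sham, 363 in UAC, 385 in cluster 16 and 341 in the 2 clusters; Ccnd2 reached 57.4, 74.2, 57.3 and 60.1. These are counts at the 3′ end of transcripts, with no correction for length. The CDK inhibitor Cdkn1b stood at 293, 381, 421 and 445. Myc, a driver of cell growth, stood at 11.6, 16.0, 7.77 and 9.56.

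The genes most concentrated in the cluster included histones and genes of chromosome segregation and DNA repair. Ordered by the lowest ratio of the 3 libraries to the rest of the library, the 15 leading genes were Rtkn2, Hist1h2an, Nusap1, Esco2, Neil3, Kif14, Hist1h2ai, Kif15, Iqgap3, E2f7, Hist1h2bh, Polq, Top2a, Ppef1 and Sgo2. Hist1h2an, a replication-dependent histone H2A gene, stood at 2709 in sham, 2825 in UAC, 3891 in cluster 16 and 2945 in the 2 clusters. Nusap1, which bundles spindle microtubules, stood at 489, 450.2, 610.4 and 492. Esco2 acetylates cohesin during replication, Kif14 and Kif15 are mitotic kinesins, Neil3 and Polq repair DNA, and Sgo2 protects cohesin at centromeres. Of all UMIs of Top2a, 62.5% lay in the cluster in sham, 56.7% in UAC, 32.1% in cluster 16 and 52.3% in clusters 12 and 16 together. Of those of Mki67, 61.0% lay in the cluster in sham, 54.6% in UAC, 28.1% in cluster 16 and 48.7% in both together.

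Both main phases of the cycle were present. The 43 genes of the S phase list, which serve DNA replication, summed to 6109.6 (6067 to 6153) in sham, 6280 (6235 to 6325) in UAC, 8680.0 (8604 to 8756) in cluster 16 and 6548 (6501 to 6596) in the 2 clusters. The 47 genes of the G2/M list, which serve mitosis, summed to 11782 (11722 to 11841), 11633 (11572 to 11694), 16400.0 (16296 to 16505) and 15296 (15224 to 15369). The ratio of the S sum to the G2/M sum was 0.519 in sham, 0.540 in UAC, 0.529 in cluster 16 and 0.428 in the 2 clusters; taken instead as a median over genes against the rest of the library, it was 0.636, 0.619 and 0.873 in sham, UAC and cluster 16, which set cluster 16 above UAC. In the non-cycling Rag1-high cluster (highest in Rag1 after the cluster highest in Vpreb1), the S sum was 673, 647 and 688 in sham, UAC and UAC + miR-330. The G2/M sum there was 1313, 1283 and 1317. Hmgb2, a chromatin protein of dividing cells, stood at 8240.4 in sham, 7033 in UAC, 6663 in cluster 16 and 7099 in the 2 clusters.

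**Figure D2:**
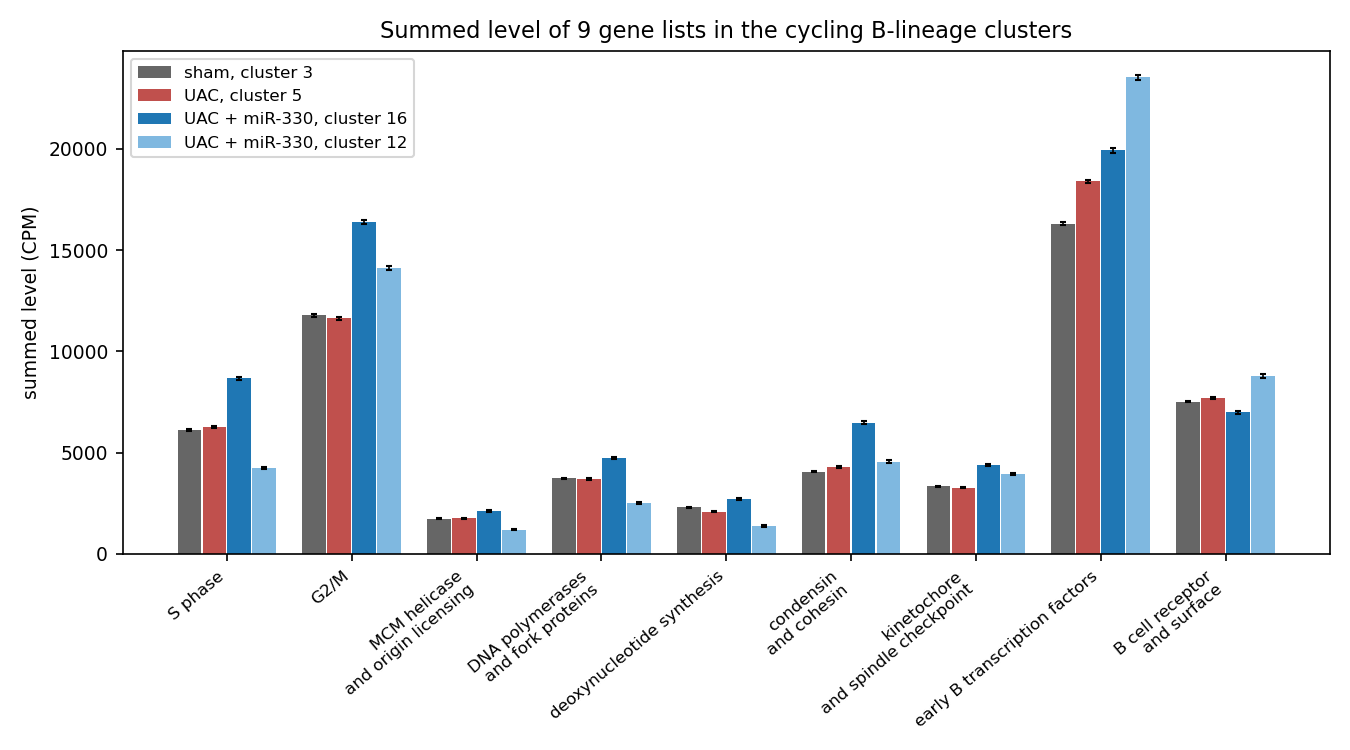
Summed level of 9 gene lists (bars, CPM, vertical axis from 0) in sham cluster 3, UAC cluster 5 and clusters 16 and 12 of UAC + miR-330; error bars are exact Poisson 95% intervals. Sham and UAC bars are close in the S phase list (6109.6 and 6280) and the G2/M list (11782 and 11633), and cluster 16 exceeds cluster 12 most visibly in S phase genes (8680.0 against 4259).

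Promoters of the 2 phase lists held different letters. They are shown because the S phase and G2/M genes were high together in the cluster, and the motifs are those known for cell cycle genes: the CHR (TTTGAA), the CCAAT box (CCAAT) and E2F sites (TTTCCCGC, TTTGGCGC, TTTCGCGC or TTTGCCGC), each read on both strands in 250 bases before to 50 after the gene start (RefSeq, build GRCr8). Of 43 G2/M members with a promoter in the table, 29 (67.4%) held a CHR, against 5 of 32 S phase members (15.6%) and 18.3% of all 33469 promoters. An E2F match stood in 18 of the 32 S phase promoters (56.2%), in 1 of the 43 G2/M promoters (2.33%) and in 2.14% of all. A CCAAT box stood in 31 G2/M promoters (72.1%), 20 S phase promoters (62.5%) and 37.5% of all. Both CHR and CCAAT stood in 24 G2/M promoters (55.8%), 2 S phase promoters (6.25%) and 7.41% of all. Printed are the G2/M promoters of Top2a (chr10:84473044-84473343, minus strand) and Mki67 (chr1:199952544-199952843, minus strand), which hold both, and that of Slbp (chr14:81295998-81296297, plus strand), the histone mRNA binding protein, which holds an E2F match and is also 1 of the 5 S phase promoters with a CHR, not in capitals. Capitals mark CHR and CCAAT matches in Top2a and Mki67 and the E2F match in Slbp; a match on the other strand reads TTCAAA or ATTGG, and in Mki67 a CHR at base 152 and a CCAAT match at base 157 overlap. A match describes letters and does not show that a factor binds.
Top2a: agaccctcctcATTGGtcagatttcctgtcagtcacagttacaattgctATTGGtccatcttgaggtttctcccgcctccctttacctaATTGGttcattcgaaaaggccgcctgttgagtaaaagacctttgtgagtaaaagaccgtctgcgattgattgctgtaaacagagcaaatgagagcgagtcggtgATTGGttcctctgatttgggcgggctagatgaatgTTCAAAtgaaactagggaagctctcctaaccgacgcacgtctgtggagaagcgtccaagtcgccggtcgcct
Mki67: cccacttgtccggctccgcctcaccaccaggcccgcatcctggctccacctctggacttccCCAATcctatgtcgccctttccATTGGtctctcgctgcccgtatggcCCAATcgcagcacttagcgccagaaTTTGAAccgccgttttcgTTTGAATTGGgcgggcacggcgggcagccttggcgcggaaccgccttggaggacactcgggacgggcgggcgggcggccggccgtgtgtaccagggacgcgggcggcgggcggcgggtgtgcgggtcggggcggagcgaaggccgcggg
Slbp: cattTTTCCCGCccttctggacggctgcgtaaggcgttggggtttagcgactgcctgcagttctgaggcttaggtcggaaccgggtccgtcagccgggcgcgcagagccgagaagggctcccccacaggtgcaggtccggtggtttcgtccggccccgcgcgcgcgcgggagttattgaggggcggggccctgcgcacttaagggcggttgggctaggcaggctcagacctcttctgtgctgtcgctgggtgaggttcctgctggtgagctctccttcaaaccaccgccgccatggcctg

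Each library held another cycling cluster with early B genes, and also with erythroid genes. It was taken as the cluster highest in Igll1 among those with at least 500 CPM of Top2a, a choice made after seeing the data, and was sham cluster 13, UAC cluster 11 and UAC + miR-330 cluster 11. Igll1 stood there at 1166, 758 and 611, against 231, 159 and 136 in the cycling B-lineage cluster (122 in clusters 12 and 16 together). Cd79b stood there at 205, 195 and 140, against 650.01, 568 and 426 (494 together). The S phase sum was 6159, 6837 and 7060.0 there and 6109.6, 6280 and 8680.0 here (6548 together), so it was lower here except in cluster 16 alone, while the G2/M sum was 7884, 7496 and 9789 there and 11782, 11633 and 16400.0 here (15296 together). The MYC and biosynthesis list, of genes that build ribosomes, proteins and nucleotides, summed to 13550, 12416 and 11450 there and to 6443, 6166 and 5684 here (5462 together). Myc stood there at 29.6, 39.0 and 31.1. Erythroid markers summed to 1655, 3807 and 5398 there and to 1421, 189 and 165 here (147 together), and their part in these differences was not tested. No test of these differences was made, because the clusters were themselves made from gene levels.

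UAC was compared with sham to ask how the cluster differed with the crossbite. No cell cycle gene on the lists was called. None of the 42 tested S phase genes and none of the 46 tested G2/M genes was called in either direction, where called means a fold of at least 1.5 with 95% intervals apart among genes with at least 50 UMIs in both clusters together. The median log2 ratio was -0.01 for the S phase list and 0.00 for the G2/M list, beside 0.08 for all 10078 genes tested; with the deposited mean counts the 2 medians were 0.18 and 0.20, with 1 S phase gene called higher, and after centring on the median gene -0.09 and -0.08, with 0 called. Across all genes 245 rose (2.43% of those tested) and 84 fell (0.833%). The lists for MCM proteins, DNA polymerases, deoxynucleotide synthesis, cyclins, kinetochores, spindle, cohesin and double-strand break repair also had 0 members called. The balance of rises and falls moved with the scaling: 74.5% of calls were rises with CPM, 52.8% after centring on the median gene, 67.8% without mitochondrial, ribosomal, haemoglobin and immunoglobulin UMIs, and 95.6% with the deposited mean counts, which put the median of all genes at 0.28.

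Some genes of the B lineage differed. Vpreb2, a surrogate light chain gene, fell from 76.0 (71.3 to 80.9) in sham to 44.1 (40.5 to 48.1) in UAC. Id3, an inhibitor of E proteins that acts in B cell development, fell from 195 (187 to 202) to 121 (115 to 128), and Erg, an ETS factor of early progenitors, rose from 8.37 (6.86 to 10.1) to 12.7 (10.8 to 14.9); they were the 2 calls among 23 tested early B transcription factors. Rag1 rose from 17.4 (15.1 to 19.8) to 26.6 (23.7 to 29.6), while Rag2 stood at 34.5 and 27.4 and was not called. The receptor kinase Flt3 rose from 3.36 (2.43 to 4.53) to 10.6 (8.82 to 12.6), and the Notch target Hes1 from 11.6 (9.78 to 13.6) to 17.4 (15.1 to 19.9). Flt3 is also on the dendritic marker list, which summed to 15.9 in sham and 27.9 in UAC, with 1 of 2 tested higher. The part of dendritic cells in its rise was not tested. The calls of Erg, Rag1 and Hes1 were lost after centring on the median gene and without mitochondrial, ribosomal, haemoglobin and immunoglobulin UMIs, and that of Id3 with the deposited mean counts. With CPM, Pax5 (378 and 542, log2 ratio 0.52), Igll1 (231 and 159, -0.54) and Ccnd3 (494 and 363, -0.45) were under the 1.5-fold limit with intervals apart. Igll1 passed the limit after centring on the median gene, and Pax5 with the deposited mean counts. Of the 14 tested genes of the surrogate light chain and early B list, 3 rose and 1 fell (1 and 2 after centring on the median gene), beside 2.43% and 0.833% of all genes; of the 23 of the B cell receptor list, 0 were called.

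A heat shock gene and some interferon-stimulated genes rose. Hsph1, a heat shock chaperone, rose from 52.1 (48.3 to 56.3) to 102 (96.8 to 108), the single call among 20 tested immediate early and heat shock genes. Of 15 tested interferon-stimulated genes 3 rose, beside 2.43% of all genes: Ifi27 from 27.8 (24.9 to 30.8) to 65.2 (60.7 to 69.9), Isg15 from 3.60 to 7.0 and Ifit3 from 2.27 to 6.41. The whole interferon list summed to 242 in sham, 15th of 15 clusters, and to 299 in UAC, 15th of 18. In the highest cluster of each library it summed to 3081 and 5023. Ifit3 stood at 45.4 and 54.9 in the rest of the sham and UAC libraries. The part of RNA from other cells in these rises was not tested. Xbp1, a factor of the secretory pathway, rose from 9.54 to 14.8, and Bcl2a1, a survival protein of the BCL2 family, from 5.94 to 13.5. Outside the cluster, Bcl2a1 stood at 96.1 in the rest of the sham library and 173 in that of UAC. The part of RNA from other cells in its rise was not tested. Pcp4l1 rose from 31.4 (28.4 to 34.7) to 76.4 (71.5 to 81.5), and in the whole library it stood at 40.9 in sham and 71.0 in UAC. The amino acid transporter Slc7a5 rose from 21.6 to 33.5, the single call among 26 tested genes of the MYC and biosynthesis list; the calls of Xbp1 and Slc7a5 were lost after centring on the median gene.

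The largest changes included genes known from red cells, granulocytes and cartilage. The 10 largest rises were Olfm4 (1.09 to 18.6, log2 ratio 4.04), Mcpt10, Slfn4 (6.88 to 27.9), Myo1e, G0s2 (11.5 to 43.1), Ccl3, Olr1, Ifit3, Fnip2 and Zfp458. The 10 largest falls were Lgals5, a galectin of rat red cells (11.0 to 0.750, log2 ratio -3.81), Rhd of the red cell surface (7.97 to 1.67), Serpinh1, a collagen chaperone (6.65 to 2.58), the defensins RatNP-3b (193 to 78.0) and Defa5, the cartilage gene Snorc (15.8 to 6.5), Slc8a1, the haem synthesis enzyme Alad, Mgst3 and Col6a2. Marker lists of other cell types moved beside them. Of all genes 2.43% rose and 0.833% fell. The 13 erythroid markers measured summed to 1421 in sham, led by Hba-a1 at 828, and to 189 in UAC, led by Tfrc at 69.5, and 8 of the 11 tested fell with 0 markers at 0 UMIs in either. The 12 neutrophil markers summed to 3354 and 3704, led by S100a9 at 1463 and 1620.5, and 3 of the 9 tested rose. The 12 chondrocyte markers summed to 112 and 61.5, led by Col2a1 at 33.2 and 19, and 5 of 7 tested fell. The 12 osteogenic and fibroblast markers summed to 175 and 110.4, led by Col1a1 at 109.5 and 56.1; Sp7 was at 0 in UAC, and of 7 tested 4 fell and 1 rose, Runx2, which is named after its values were seen. The part of RNA from other cells in these changes was not tested.

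UAC + miR-330 was compared with UAC, the same UAC library as before, to ask how the cluster differed with miR-330 AAV. Part of the histone, S phase and G2/M genes were called higher in cluster 16, and fewer for the 2 clusters together. Of 9652 genes tested 735 rose (7.62%) and 515 fell (5.34%) in cluster 16; of 10061 tested in clusters 12 and 16 together, 599 rose (5.95%) and 255 fell (2.53%). The same 369 genes rose and the same 188 fell in both, and 2 were called in opposite directions. The median log2 ratio of all genes was 0.04 in cluster 16 and 0.07 in both together. Rises made up 58.8% of calls in cluster 16, 51.3% after centring on the median gene, 48.6% without mitochondrial, ribosomal, haemoglobin and immunoglobulin UMIs and 89.7% with the deposited mean counts, which moved the median of all genes to 0.27. With both clusters together they made up 70.1%, 55.2%, 60.1% and 95.7%, and the last setting put the median at 0.30.

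Histone genes were many among the largest rises, but not all rose. Of 30 tested genes whose symbol starts with Hist, a group chosen after seeing the data, 12 rose and 0 fell in cluster 16, and 11 rose and 2 fell in both clusters; of all genes 7.62% rose and 5.34% fell in cluster 16, and 5.95% and 2.53% in both. Hist1h2an, at 2825 in UAC, 3891 in cluster 16 and 2945 in both, was not called. Of the 10 largest rises, 7 were histone genes, and all 10 were also called in the 2 clusters together. Hist1h1a, a linker histone made in S phase, rose from 133 (126 to 140) in UAC to 522 (503 to 540) in cluster 16 (log2 ratio 1.97) and 349.8 (339 to 361) in both clusters (1.40). Hist1h1d rose from 227 (219 to 236) to 947 (922 to 972) and 660.2 (645 to 675), and Hist1h1c from 258 (249 to 267) to 847 (823 to 871) and 675 (659.9 to 690.5). Hist1h1b rose from 752 (736 to 767) to 2233 (2195 to 2272) and 1510.1 (1487 to 1533). Hist1h1e rose from 1130.3 (1111 to 1149) to 3546 (3498 to 3595) and 2691 (2661 to 2722). The other rises of this size were Hist1h2ai (12.6 to 61.1), Hist1h2ah (59.7 to 188), E2f8, a repressor of the E2F family (16.3 to 48.9), Arhgef26 (3.41 to 11.4) and Zdhhc15 (6.0 to 19.2). The same direction was measured elsewhere in the library: Hist1h1e stood at 631 in the Igll1-high cycling cluster of UAC and 1559.7 in that of UAC + miR-330, and at 36.1 and 100.1 in the clusters highest in Col2a1. In the non-cycling Rag1-high clusters Hist1h1e stood at 260 and 518, and in the whole libraries at 337 and 798. The part of a difference between whole libraries in the histone rises was not tested. With both clusters together the 10 largest rises, a list chosen after seeing the data, also held Vcan, which stood at 1.25 in UAC, 0.863 in cluster 16 and 15.6 in cluster 12 and rose to 7.95 in both, and Trhde, which rose from 12.4 to 29.7 and 43.0. Vcan stood at 71.9 outside cluster 5 of UAC and 86.1 outside cluster 16 of UAC + miR-330. The part of RNA from other cells in its rise was not tested. Sham levels of the 5 linker histones lay below those of UAC, at 107 for Hist1h1a, 162 for Hist1h1d, 172 for Hist1h1c, 573 for Hist1h1b and 968 for Hist1h1e.

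**Figure D3:**
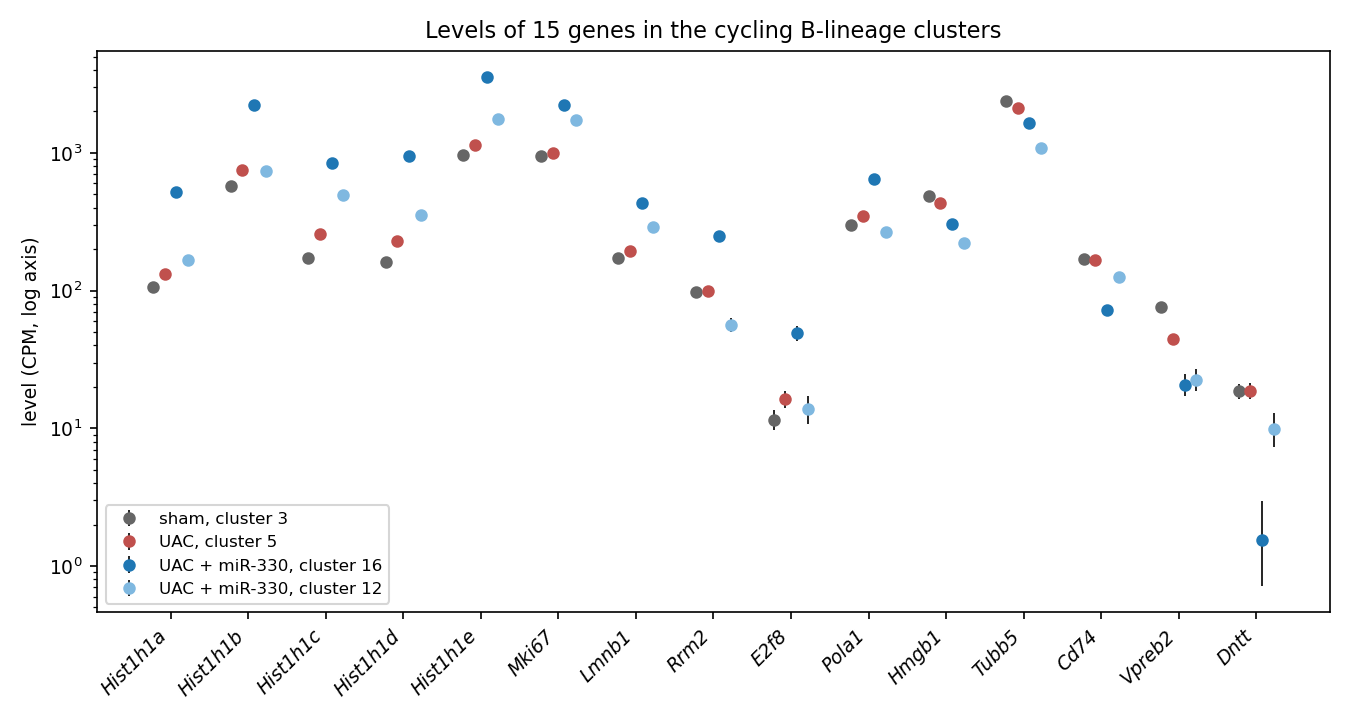
Levels of 15 genes (points, CPM, log axis) in sham cluster 3, UAC cluster 5 and clusters 16 and 12 of UAC + miR-330, with exact Poisson 95% intervals as bars. The linker histones stand highest in cluster 16, as Hist1h1e at 3546 against 1130.3 in UAC, while Dntt stands lowest there, at 1.55 against 18.7.

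Some replication genes rose in cluster 16. Of the 42 tested S phase genes 14 rose and 1 fell (median log2 ratio 0.39), against 2 and 0 with both clusters together, where the median was 0.01 and turned to -0.05 after centring on the median gene and to 0.25 with the deposited mean counts; of all genes 7.62% rose in cluster 16 and 5.95% in both. Rrm2, a subunit of ribonucleotide reductase, rose from 98.5 (93.0 to 104) in UAC to 248 (235 to 261) in cluster 16 and 156 (148 to 163) in both. Pola1, the catalytic subunit of DNA polymerase alpha, rose from 347 (336 to 358) to 651 (630.2 to 672) in cluster 16 and stood at 465 in both, where it was not called. Clspn rose from 75.6 to 156 and Dnmt1, which copies DNA methylation, from 199 to 379 in cluster 16, and neither was called in both together (108 and 269.6). Ung, which removes uracil from DNA, fell from 15.5 to 7.25 in cluster 16 and stood at 12.7 in both. Of the 23 DNA polymerase and fork genes 8 rose in cluster 16 (median 0.32) and 0 in both together, where the median was negative, at -0.11, but positive, at 0.13, with the deposited mean counts. The deoxynucleotide synthesis list had 3 of 10 higher in cluster 16 and 1 in both, and the MCM and licensing list 2 of 19 and 0.

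The G2/M and the condensin and cohesin lists had rises in cluster 16, of which fewer were found with both clusters. Of 46 tested G2/M genes 14 rose and 0 fell (median 0.42), against 9 and 0 with both clusters (0.31), beside 7.62% and 5.95% of all genes that rose, and both medians stayed positive under each scaling. Top2a, which the rule used, is on this list and is 1 of the 14. Mki67 rose from 1000.4 to 2216 in cluster 16 (log2 ratio 1.15) and 1986 in both (0.99), and it stood at 548 and 1185 in the Igll1-high cycling clusters of the same libraries. Cenpe, a kinetochore motor, rose from 201 (194 to 210) to 386 (370.2 to 402) and 388 (377 to 400), and Kif11, a motor that separates spindle poles, from 320.0 to 571 and 483. Top2a stood at 1204 in UAC and 2110.1 in cluster 16, a difference set in part by the rule, which took the cluster highest in Top2a, and the 1780 of both clusters (log2 ratio 0.56) lay under the limit of the fold. Lmnb1, a protein of the nuclear lamina, rose from 193 (186 to 201) to 431 (414 to 448) and 363 (352 to 374). Of 18 condensin and cohesin genes 12 rose in cluster 16 (median 0.67), among them Smc2 (487 to 789) and Ncapd3 (102 to 202), but in both clusters together 1 was called, Rad21 (214 to 369). Not all mitotic genes moved this way: Ube2c, which marks proteins for destruction at mitotic exit, stood at 341 in UAC, 257 in cluster 16 and 349.7 in both, and Cdk1 at 195, 220.1 and 195.

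Some abundant genes of the chromatin and spindle lists stood lower. Of the list of chromatin proteins 6 of 21 tested rose and 0 fell in cluster 16, and 2 of 22 rose and 1 fell in both; of the spindle list 10 of 26 rose and 0 fell, and 4 rose and 1 fell in both. Of all genes 7.62% rose and 5.34% fell in cluster 16, and 5.95% and 2.53% in both. Hmgb1, a chromatin protein, stood at 429.5 (418 to 441) in UAC and 302 (288 to 317) in cluster 16, short of the fold, and fell to 263 (254 to 273) in both clusters. Tubb5, a tubulin, stood at 2128 and 1639 and fell to 1368 (1346 to 1390) in both. With the deposited mean counts, neither the fall of Hmgb1 nor that of Tubb5 in both clusters was called.

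Some genes of antigen presentation and of early B stages fell. Cd74, the invariant chain of MHC class II, fell from 167 (159.5 to 174) in UAC to 71.6 (64.9 to 78.9) in cluster 16 and 97.6 (91.9 to 104) in both, and RT1-Da, a class II chain, from 30.8 (27.8 to 34.1) to 14.8 (11.9 to 18.3) and 18.9 (16.5 to 21.7). Of the 6 tested MHC class II genes 4 fell in cluster 16 and 2 of 6 in both, with a negative median under each scaling, beside 5.34% and 2.53% of all genes; RT1-Db1, the most abundant class II chain on the list, stood at 313 in UAC, 247.7 in cluster 16 and 261 in both and was not called. Vpreb2 fell from 44.1 (40.5 to 48.1) to 20.7 (17.2 to 24.8) and 21.5 (18.9 to 24.4), and Vpreb1 from 32.0 to 19.2 and 20.8. Dntt fell from 18.7 (16.3 to 21.3) to 1.55 (0.710 to 2.95) and 5.54 (4.25 to 7.10). Erg fell from 12.7 (10.8 to 14.9) to 0.863 (0.280 to 2.01) and 4.11 (3.01 to 5.48), beside 8.37 in sham. In the cluster highest in neutrophil markers Erg stood at 55.5 in UAC and 91.6 in UAC + miR-330. In the Igll1-high cycling cluster Erg stood at 47.1 and 58.3. The part of neutrophils in its fall was not tested. Rag1 changed direction with the choice of clusters: it fell from 26.6 to 15.7 in cluster 16 (log2 ratio -0.75) and stood at 32.0 in both (0.27), since cluster 12 held 49.5. Cd24, a surface protein of immature B cells, fell from 1047 to 689 in cluster 16 only and stood at 808 in both. Of 14 tested surrogate light chain and early B genes, 5 fell and 0 rose in cluster 16 (median log2 ratio -0.45), and 5 fell and 1 rose in both (-0.20, but 0.03 with the deposited mean counts); the rise was Rag2, from 27.4 (24.5 to 30.5) to 47.3 (43.3 to 51.5), and Igll1 (159, 136 and 122) was not called. With the deposited mean counts the falls of Vpreb1, Rag1 and Cd24 in cluster 16 were no longer called. In both clusters together, the falls of Cd74, RT1-Da and Vpreb1 were no longer called with these counts. Pax5 (542, 562 and 595) and Ebf1 (9134, 9865 and 10866) were not called in either.

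The remaining large falls included genes known from myeloid cells. They were Pcp4l1 (76.4 to 6.04), Fcgr2a (17.7 to 1.38), Slfn4 (27.9 to 2.42), Ccl3 (12 to 1.21), G0s2 (43.1 to 5.18), Olfm4 (18.6 to 2.24), Trem1 (8.74 to 1.04) and Ccl6 (25.7 to 3.63) in cluster 16, and of these all but Trem1 were called lower in both clusters too. Pcp4l1 fell with its library, which held 71.0 in UAC and 7.88 in UAC + miR-330. Of all genes 7.62% rose and 5.34% fell in cluster 16, and 5.95% rose and 2.53% fell in both clusters. The 12 neutrophil markers summed to 3704 in UAC, 642 in cluster 16, where they were lowest of the 19 clusters, and 2904 in both; S100a9 led at 1620.5 and 225, Csf3r was at 0 in cluster 16, and 9 of 9 tested fell in cluster 16 and 1 of 9 in both. The 12 monocyte and macrophage markers summed to 256, 112 and 239, led by Lyz2 at 201 in UAC and 59.7 in cluster 16. The 9 dendritic markers summed to 27.9, 17.1 and 18.3, led by Irf8, and 1 of 2 tested fell in each. The part of these cells in these falls was not tested. The MHC class II list summed highest in UAC cluster 14 (25106) and UAC + miR-330 cluster 8 (20297). Those clusters also led the dendritic list (859 and 577) and held Pax5 at 566 and 769. In UAC cluster 5, cluster 16 and both, the MHC class II list summed to 551, 358 and 411. The part of RNA from other cells in the falls of MHC class II genes was not tested. Erythroid sums were 189, 165 and 147, and of 8 tested markers 3 fell in cluster 16, and 4 fell and 1 rose in both. Osteogenic and fibroblast markers summed to 110.4, 60.6 and 74.0 in UAC, cluster 16 and both, led by Col1a1, and 3 of 5 tested fell in cluster 16 and 3 of 6 in both; chondrocyte markers summed to 61.5, 48.0 and 64.7, and 1 of 6 and 0 of 6 fell. Of the other marker lists, osteoclast markers summed to 221 in sham, 185 in UAC and 150.2 in cluster 16, led by Acp5, with Calcr, Ocstamp and Dcstamp at 0 in all 3, and T and NK markers, led by Cd3g, to 86.2, 71.9 and 49.9.

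Clusters 16 and 12 of the UAC + miR-330 library differed in S phase genes, in neutrophil markers and in some B-lineage genes. Of 9083 genes tested 617 were higher in cluster 16 (6.79%) and 634 in cluster 12 (6.98%), as a description, since the clustering separated them on gene levels. Of the 42 S phase genes 39 were higher in cluster 16 and 1 in cluster 12 (median log2 ratio 0.95, beside -0.06 for all genes), and 20 of 23 DNA polymerase and fork genes were higher in cluster 16 (1.02). Pcna, the sliding clamp of replication, stood at 414 in cluster 16 and 198 in cluster 12, and Slbp at 416 and 189. G2/M genes split, with 8 higher in cluster 16 and 6 in cluster 12: Cenpf, a kinetochore protein of late G2, stood at 670.3 and 1079, and Ube2c at 257 and 449. Of 14 tested surrogate light chain and early B genes 3 were higher in cluster 12, and of 23 B cell receptor and surface genes 6, with 0 higher in cluster 16 on either list. Single genes higher in cluster 12 were Rag1 at 49.5 against 15.7, Rag2 at 69.9 against 26.2, Bcl6 at 40.4 against 21.2 and Cd40 at 103 against 52.0. The ratio of S to G2/M sums was 0.302 in cluster 12 and 0.529 in cluster 16. Neutrophil markers summed to 5332 in cluster 12 and 642 in cluster 16, with 9 of 9 tested higher in cluster 12 (median log2 ratio -2.66), and their part in the difference was not tested. As the clustering split these cells in 1 library only, the split and the condition cannot be told apart.

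Shares of mitochondrial and ribosomal protein UMIs, signs of RNA quality, were compared between the clusters. Mitochondrial UMIs made up 5.79% of the cluster in sham, 5.55% in UAC, 4.89% in cluster 16 and 5.39% in cluster 12. Ribosomal protein UMIs made up 14.0%, 12.4%, 10.3% and 9.77%. Their part in the differences above was not tested.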

How the data were processed

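Condylar cartilage and subchondral bone were sequenced with 10x 3′ single-cell chemistry in 3 pooled libraries, 1 per condition. Each library had 1 table of graph-based clusters, made without the other libraries. Its deposited mean counts are a normalized signal, in which all genes of a cluster were scaled by the same factor. The deposited log2 fold changes and the authors' adjusted p-values compare each cluster with the rest of its library and were not used. The submitters' processing notes name Cell Ranger 7.0, STAR and Seurat 4.0.1 and the builds GRCh38 and mm10, which are not rat builds; gene names here are those of the tables.

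UMIs were recovered as the mean divided by the smallest positive mean of the column, and 100% came out whole to within 1e-06. Names on more than 1 identifier were added. Levels are CPM with exact Poisson 95% intervals. A gene was called at a fold of at least 1.5 with intervals apart, where the clusters compared held at least 50 UMIs of it; log2 ratios add 0.5 UMI to each count. No test was possible with 1 library per condition. Of 590 list entries 551 matched by name, 6 by synonym and 33 not. Lists numbered 28 for pathways and 12 for markers of other cells; they, the rule and the members were chosen with earlier results of these data known.

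Genes named were drawn from the markers, stage genes, 15 leading genes, 10 largest changes each way per comparison (at least 100 UMIs, without mitochondrial, ribosomal protein, haemoglobin, immunoglobulin, marker and unnamed genes) and, of each list, the 3 most abundant and up to 3 largest changes each way; not all of these are printed, and those printed were picked after their values were seen. Chosen after seeing the data were clusters 12 and 16 together, cluster 12 alone, the Igll1-high comparison cluster, the minimum mean of 5 CPM for matching genes, the leading lists of 50, the promoters printed, the group of genes whose symbol starts with Hist, the genes and lists drawn, the 0.1 log2 limit for a list that moved and the classing of Igh-6 as immunoglobulin. Calls were tested on simulated data. Alternatives were other folds, scalings, UMI minimums and added UMIs. Python 3.11.15, numpy 2.4.6, pandas 2.3.3, scipy 1.17.1 and matplotlib 3.10.9 were used; promoters and synonyms came from RefSeq tables of GRCr8.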

Additional observations from a re-analysis of the deposited data

How the results depend on the processing

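Choice of cluster did not change with a Pax5 minimum of 20 or 100. Genes higher in UAC than sham numbered 245, and 69 at a fold of 2, 151 after centring on the median gene, 913 with the deposited mean counts and 149 with at least 200 UMIs; genes lower numbered 84, and 35, 135, 42 and 48. Genes higher in UAC + miR-330 than UAC numbered 735, and 156 at a fold of 2 and 1896 with the deposited mean counts; genes lower numbered 515, and 205, 218 and, with clusters 12 and 16 together, 255. Fewer calls at a higher fold or minimum follow from the setting; for the others the cause was not tested. The share of the cluster among clusters with enough Pax5 was 22.9% in sham, 19.9% in UAC and 8.37% in UAC + miR-330, or 16.2% with clusters 12 and 16 together. Without mitochondrial, ribosomal, haemoglobin and immunoglobulin UMIs, the S phase sum was 7655, 7680 and 10271 and the G2/M sum 14761, 14226 and 19406.5 in sham, UAC and cluster 16, against 6548 and 15296 for both clusters on all UMIs. The ratio of S to G2/M, as a median over genes against the rest of the library, was 0.636, 0.619 and 0.873; as a ratio of sums it was 0.529 in cluster 16, 0.560 without the most abundant gene of each list, and 0.428 with both clusters. With clusters 12 and 16 together, medians over UAC, at least 0.1 from 0 in both settings, reversed for DNA polymerases (-0.11), cyclins and CDKs (-0.10) and CDK inhibitors (-0.25), as did Rag1 (0.27), and 4 more pathway lists (MCM, B cell receptor, p53 and interferon) changed sign with 1 of the 2 medians under 0.1; the chondrocyte (-0.36 to 0.26) and the monocyte and macrophage markers (-0.52 to 0.10) also reversed; the cause was not tested. Of the calls of named genes over both comparisons, 7 were lost after centring, 13 with the deposited mean counts and 5 without the UMIs named above, and 42 of those of UAC + miR-330 were lost with both clusters, with 1 reversed. A count model on the recovered UMIs could not be run with 1 library per condition. Depth limits genes of few UMIs.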

Other observations

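Repair and survival genes of the cluster were also measured. Of 24 tested genes of double-strand break repair, 0 were called between UAC and sham; in UAC + miR-330 against UAC, 6 rose in cluster 16 (median log2 ratio 0.42) and 3 in clusters 12 and 16 together (0.26), beside 7.62% and 5.95% of all genes. Bard1, a partner of the BRCA1 protein, rose from 67.3 (62.7 to 72.1) in UAC to 131 (122 to 141) in cluster 16 and 104 (97.9 to 109.9) in both, and stood at 63.7 in sham. Lig4, the ligase that joins broken ends, stood at 119 in sham, 130.4 in UAC and 177 in cluster 16, and rose to 200.1 (192 to 209) in both clusters, with 225 in cluster 12. Among genes of the BCL2 family, Bcl2l1, which protects cells from death, stood at 159.6, 198, 189.9 and 227 in sham, UAC, cluster 16 and both clusters, and was not called.

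Some genes of plasma cells were also measured. Mzb1, a chaperone of immunoglobulin secretion, stood at 129.6 in sham and 118 in UAC, fell to 69.9 (63.3 to 77.1) in cluster 16 (not called with the deposited mean counts) and stood at 89.3 in both. Irf4, a factor of pre-B and plasma cells, stood at 216, 295, 331 and 365 and was not called.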
